A study of Bos taurus with 8 samples.

Results

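The genes described here are 49 cattle genes whose products copy DNA, guard the copying or repair it. They were taken from a list of names, chosen with earlier results of these data known, and matched to the array through the RefSeq accession of each probe. A named probe was found for 42 of the 49 genes, out of 12602 genes named on the array. The other 7, BRCA2, ATR, XRCC1, MCM2, RFC1, CDT1 and GINS2, had none and were not analysed here. All 42 were among the 10957 genes tested, and 41 of them were well above background on all 8 arrays.

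RNA of HanWoo (Korean native) cattle cells was hybridised to 8 one-colour oligonucleotide arrays, 1 per sample. The embryo-derived stem-like cells (eSLCs) were colonies grown from blastocysts of 3 origins, with 2 arrays each. IVP-eSLCs came from in vitro produced, fertilized embryos (I2 at passage 35 and I9 at passage 30), NT-eSLCs from nuclear transfer embryos whose donor cells were cultured from ear skin (N2 at passage 36 and N7 at passage 30), and PA-eSLCs from parthenogenetic embryos, made by activating oocytes without sperm (P1 at passage 31 and P4 at passage 36). All eSLCs were kept on mitomycin-C treated mouse STO feeder cells in 3i medium, which holds the MEK inhibitor PD184352, the FGF receptor inhibitor SU5402 and the GSK3 inhibitor CHIR99021. The 2 arrays of somatic cells (SCs) came from passage 5 (SC P5) and passage 10 (SC P10), in DMEM with serum and without these inhibitors. The labels give neither the tissue of the SCs nor whether both passages were 1 culture, and the cells therefore differed in medium, feeder and passage as well as in origin. The arrays lay on 2 slides, slide 1 holding SC P5 beside I2, I9 and N7, and slide 2 holding SC P10 beside N2, P1 and P4. The passage and the slide of the SCs therefore cannot be told apart.

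The markers of both cell kinds separated eSLCs from SCs. The trophectoderm marker CDX2 was between 5183 and 14887 in eSLCs and at the floor of 13.3 on both SC arrays, and all 7 trophectoderm markers measured were called higher in eSLCs. The pluripotency marker POU5F1 was between 30.7 and 101 in 5 eSLC arrays and 898 in N7, NANOG did not exceed 35.4, and SOX2 was higher in SCs (459 and 551) than in eSLCs (46.8 to 99.4). None of these 3 early embryo markers was called higher in eSLCs, and the cells are named here by their label alone. Of 9 fibroblast markers measured, 7 were called lower in eSLCs, and the collagen chain COL1A2 was 140201 and 213867 in SCs against 351 to 947 in eSLCs. The share of spots well above background differed little between arrays, at 71.2% to 76.7%. Brightness before scaling differed by slide. The 75th percentile of the background-subtracted intensity was 2818 to 4092 on the arrays of slide 1 and 1192 to 1611 on those of slide 2.

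Before a cell copies its DNA, the origin recognition complex, CDC6 and CDT1 load the ring of MCM proteins on each origin, a step called licensing. In S phase the ring is switched on as a helicase with the GINS complex, polymerases alpha, delta and epsilon build the strands, and PCNA, a sliding clamp set in place by the RFC loader, holds the polymerase on the template. RPA covers single strands, FEN1 and LIG1 finish the lagging strand, and kinases such as ATR and CHEK1 slow the cycle when forks stall. Broken or mismatched DNA is handled by other proteins, through homologous recombination, end joining, the Fanconi pathway for crosslinks, single-strand break repair and mismatch repair. Early embryonic cells divide quickly and spend much of the cycle in S phase.

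Of the 42 genes, 24 were up-regulated in eSLCs and 1, FANCL, was down-regulated, at an adjusted p below 0.05 and a change of at least 2-fold in limma over all genes. This is set against 19.7% of all genes tested called higher and 15.7% called lower, and the 24 are 57.1% of the members. The member list was chosen with earlier results of these data known, so setting these shares side by side is no test of it. The median difference of the members, eSLC minus SC, was 1.06 on the log2 scale, and that of all genes was 0.23. The direction was positive for 38 of 42 members and for 6554 of all 10957 genes tested. Of the 24, 7 differed by more than 4-fold and 17 by 2- to 4-fold, and the other 17 members were under 2-fold apart, 4 of them (MCM6, MCM7, RFC5 and FANCG) with an adjusted p below 0.05. On 31 members every eSLC array lay above both SC arrays, and on 1 every eSLC array lay below them, where 34% and 23.6% of all genes tested did so. The counts by role given below rest on few genes each and are to be read beside 19.7% of all genes tested called higher. The values of single arrays are shown for 8 members in the plot of signals by array.

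**Figure D1:**
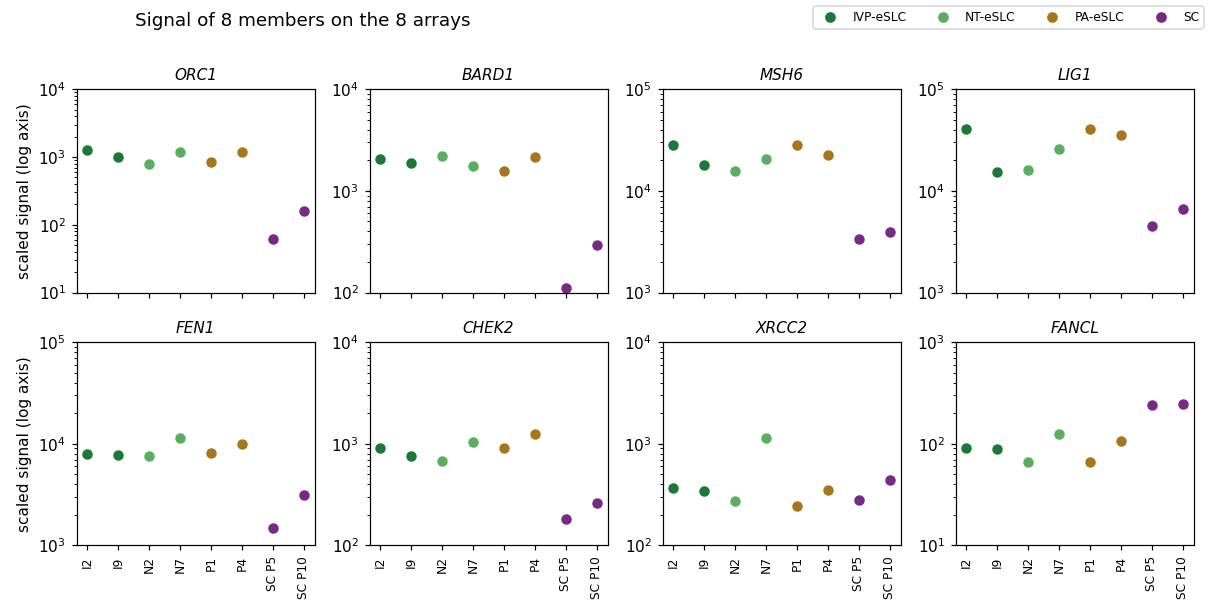
Scaled signal (75th percentile of each array set to 1000, log axis) of 8 members on each of the 8 arrays; each point is 1 array and colours mark the conditions. ORC1, BARD1, MSH6, LIG1, FEN1 and CHEK2 lay above both SC arrays on every eSLC array, FANCL lay below them, and XRCC2 stood out in N7 at 1135.

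The count of members up-regulated rested in part on 1 array. Without SC P5, 12 members were called higher (ATM, BARD1, CDC6, CHEK2, FEN1, MCM5, MSH6, ORC1, POLD1, PRIM1, RAD52 and RFC4), none was called lower, and the median difference of the members was 0.73, while 1299 genes in place of 2155 were called higher among all genes. Without SC P10, the median difference was 1.45 for the members and 0.22 for all genes tested. The p-values rest on the spread between the 2 arrays of each condition, pooled over the conditions and moderated over all genes. With 2 SC arrays, they do not measure how SC cultures differ, and part of the spread may be technical. Differences in RNA per cell and in the number of cells of a type cannot be told apart in bulk samples.

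ORC1, the large subunit of the origin recognition complex, showed one of the widest gaps between eSLCs and SCs. Its scaled signal was 1265 and 1007 in the IVP-eSLC arrays I2 and I9, 782 and 1202 in the NT-eSLC arrays N2 and N7, and 833 and 1197 in the PA-eSLC arrays P1 and P4. The SC arrays gave 62 (SC P5) and 159 (SC P10). The 6 eSLC arrays lay within 1.62-fold of each other and all above the SC arrays, and SC P10 was 2.57-fold higher than SC P5. The log2 difference was 3.37 ± 0.40 (SE, n = 6 and 2), a 10.4-fold change (limma, adjusted p = 0.00131). CDC6, which brings MCM rings to the origin, was 142 and 165 in I2 and I9, 160 and 228 in N2 and N7, and 134 and 205 in P1 and P4. It was at the floor in SC P5 and 59 in SC P10, so the size of its difference, 2.60 ± 0.56 (adjusted p = 0.0121), depends on where the floor is set. All 9 licensing genes measured had a positive difference, and 5 of them were called higher.

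The MCM genes code for the subunits of the replicative helicase. MCM5 was 34363 and 41343 in the IVP-eSLCs, 45795 and 33764 in the NT-eSLCs and 34348 and 37777 in the PA-eSLCs, and 8498 and 18151 in SC P5 and SC P10. Its difference was 1.60 ± 0.32 (adjusted p = 0.00869). MCM3 and MCM4 were also called higher, by 1.44 ± 0.42 and 1.39 ± 0.32, while MCM7 at 0.92 ± 0.20 and MCM6 at 0.66 ± 0.16 did not reach 2-fold. The other MCM4 probes gave 0.63 to 1.52. Without SC P5 the differences of MCM3 and MCM4 were 0.78 and 0.82, with adjusted p of 0.243 and 0.0656, and MCM3 was also lost without I2, I9, N2 or P4. MCM7 was called without SC P10, with a difference of 1.24. The other members of the origin complex moved little, ORC6 by 0.28 ± 0.15 and ORC2 by 0.27 ± 0.18, and the other 2 probes of ORC2 gave 0.83 and 1.15.

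GINS1, a subunit of the complex that activates the MCM helicase, was 4652 and 5178 in I2 and I9, 5255 and 7768 in N2 and N7 and 4663 and 5401 in P1 and P4. SC P5 had 2332 and SC P10 had 4176, which is close to the lowest eSLC value. Its difference of 0.79 ± 0.28 did not pass the test (adjusted p = 0.0609), although a second probe gave 2.05 and it was called without SC P10, at 1.21. It was the helicase activation gene with a probe, since GINS2 had none.

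Of the 4 genes of polymerase subunits and primase, 3 were called higher. POLD1, the catalytic subunit of polymerase delta, was 2448 and 1747 in the IVP-eSLCs, 1870 and 1712 in the NT-eSLCs, 3305 and 2455 in the PA-eSLCs, and 405 and 850 in SC P5 and SC P10. The difference was 1.90 ± 0.33 (adjusted p = 0.00506). POLE2, a subunit of polymerase epsilon, ranged more widely among the eSLCs, at 1524 and 779 in I2 and I9, 621 and 1202 in N2 and N7 and 900 and 1503 in P1 and P4, against 228 and 491 in the SCs. Its call, at 1.62 ± 0.47 (adjusted p = 0.0326), was lost without either SC array (adjusted p = 0.258 without SC P5 and 0.0656 without SC P10) and without I2, N7, P1 or P4. PRIM1, the small primase subunit, differed by 1.51 ± 0.15, and its SC values of 49.4 and 55.9 were close to each other. Its other probes gave 0.88 and 1.11. POLA1, the catalytic subunit of polymerase alpha, differed by 0.49 ± 0.23 and overlapped with the SC range.

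Of PCNA and its loader subunits, 3 of 5 measured were called higher. RFC4, a loader subunit, was 4638 and 3250 in the IVP-eSLCs, 3133 and 3506 in the NT-eSLCs, 4002 and 4806 in the PA-eSLCs and 848 and 1585 in SC P5 and SC P10, a difference of 1.73 ± 0.29 (adjusted p = 0.00464). All eSLC arrays lay above both SC arrays. PCNA was 13263 and 14185 in the IVP-eSLCs, 12755 and 16178 in the NT-eSLCs, 10519 and 14217 in the PA-eSLCs, and 5051 and 8621 in the SCs, a difference of 1.02 ± 0.26 (adjusted p = 0.0219). RFC2 differed by 1.02 ± 0.15, and its second probe gave 0.44. PCNA and RFC2 both sat just past the 2-fold limit, and both calls were lost with the mean of a gene's probes. Without SC P5, PCNA was at 0.64 and RFC2 at 0.88, and under the array median PCNA was at 0.98 and RFC2 at 0.97, so the calls were lost. The PCNA call was also lost without N7 or P4 and the RFC2 call without N2, and the other 2 PCNA probes gave 0.29 and 0.19. RFC5 was at 0.86 ± 0.27 with a call without SC P10 (1.28), and RFC3 at 0.55 ± 0.30, where SC P10 (5829) exceeded the eSLC arrays I2 (5768) and P1 (4164).

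Among the 3 subunits of RPA, the single-strand binding complex, RPA2 was called higher, and RPA1 and RPA3 were not called. RPA2 was 7469 and 6368 in the IVP-eSLCs, 7012 and 10474 in the NT-eSLCs and 7855 and 8386 in the PA-eSLCs, and 2960 and 4885 in the SCs, a difference of 1.04 ± 0.26 (adjusted p = 0.0208). The call was lost without SC P5 (0.68) or N7 (0.95) and under the array median (0.99) and quantile normalization (0.93). RPA3 was 3658 and 7517 in I2 and I9, 6572 and 7205 in N2 and N7, 3266 and 3938 in P1 and P4, and 6143 and 6940 in the SCs. The values of RPA3 thus fell on both sides of the SC values, and its difference was -0.37 ± 0.29. RPA1 differed by -0.27 ± 0.15.

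FEN1, the nuclease that trims the flap of each Okazaki fragment, was 8027 and 7698 in the IVP-eSLCs, 7597 and 11334 in the NT-eSLCs, 8061 and 9948 in the PA-eSLCs, and 1473 and 3127 in the SCs. The difference of 2.02 ± 0.33 is a 4.04-fold change (adjusted p = 0.00421). LIG1, the ligase that seals the nicks, was 40839 and 15419 in I2 and I9, 16217 and 25836 in N2 and N7 and 40782 and 35731 in P1 and P4, against 4503 and 6697 in the SCs. Its difference was 2.30 ± 0.42 (4.91-fold, adjusted p = 0.0063), while the eSLC arrays spread over 2.65-fold, with I9 and N2 lowest. The 4 LIG1 probes gave 2.09 to 2.43. Without SC P5 the LIG1 difference was 2.01 with an adjusted p of 0.0842.

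**Figure D2:**
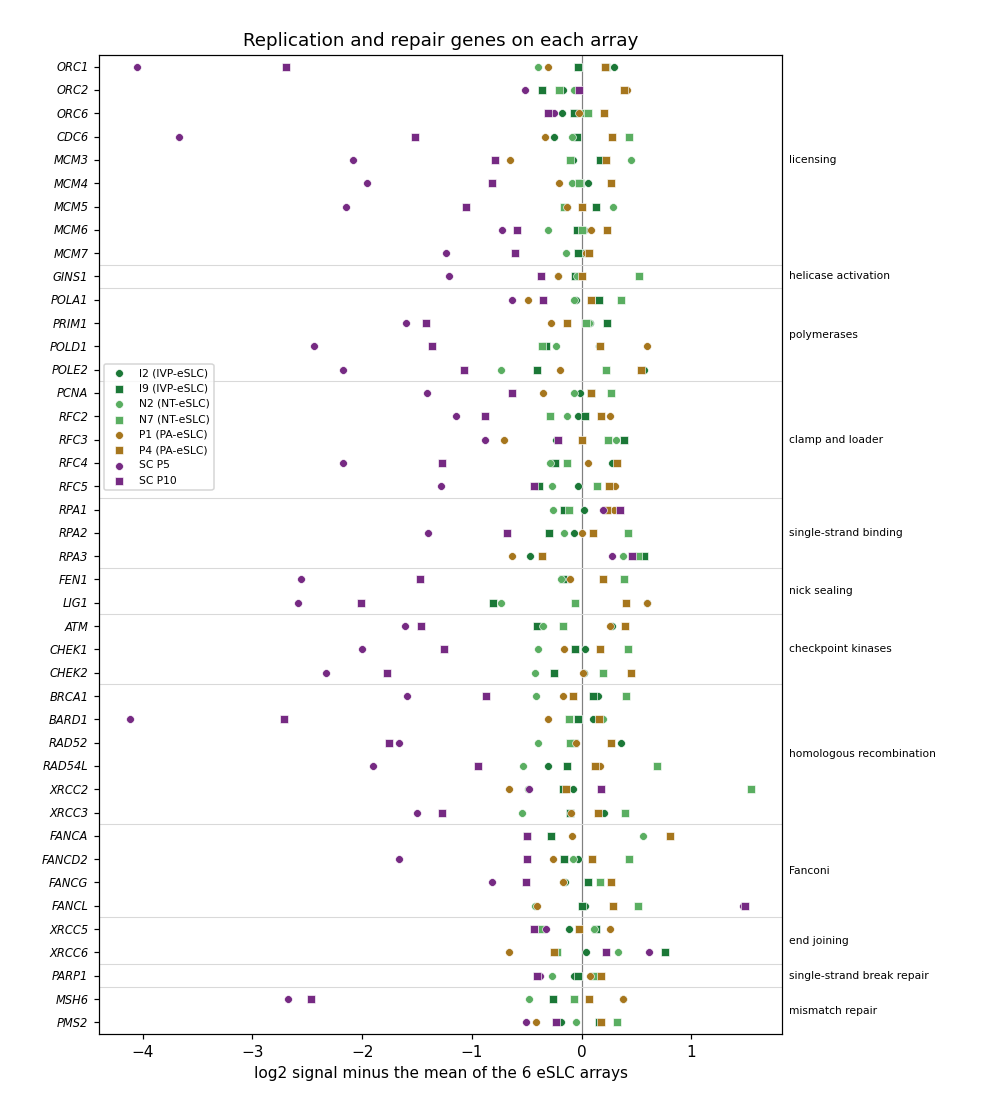
Log2 signal of the 42 members on each array minus the mean of the 6 eSLC arrays (0), in rows grouped by role; circles and squares are the 2 arrays of a condition. SC P5 lies left of SC P10 for 36 of 42 members, and FANCL is the member whose SC points lie clearly to the right, at 244 and 247 in scaled signal.

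The 3 checkpoint kinases measured were all called higher. CHEK2, activated at double-strand breaks, was 919 and 764 in the IVP-eSLCs, 675 and 1038 in the NT-eSLCs, 916 and 1241 in the PA-eSLCs, and 180 and 265 in the SCs, a difference of 2.05 ± 0.27 (4.15-fold, adjusted p = 0.00176). CHEK1, the kinase of stalled forks, was 1600 and 1505 in I2 and I9, 1186 and 2097 in N2 and N7, 1403 and 1755 in P1 and P4 and 390 and 656 in SC P5 and SC P10. It differed by 1.63 ± 0.30 (adjusted p = 0.00703) and by 1.26 without SC P5 (adjusted p = 0.0745). ATM, the kinase that senses double-strand breaks, was 585 and 648 in SC P5 and SC P10 and 1347 to 2350 in the eSLCs, a difference of 1.54 ± 0.22. Its SC values were close to each other, so the difference was alike on both slides, 1.51 and 1.56.

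Of the homologous recombination genes, 5 of 6 were called higher. BARD1, the partner of BRCA1, had the largest difference of the 42 with all arrays in the fit. It was 2066 and 1881 in I2 and I9, 2205 and 1772 in N2 and N7, 1560 and 2141 in P1 and P4, and 111 and 293 in SC P5 and SC P10. The 6 eSLC arrays lay within 1.41-fold of each other. The difference was 3.41 ± 0.38 (10.7-fold, adjusted p = 0.000981). RAD52, which helps strands anneal, was 638 and 474 in I2 and I9, 380 and 464 in N2 and N7, 481 and 602 in P1 and P4 and 157 and 148 in the SCs. RAD52 differed by 1.71 ± 0.20 (adjusted p = 0.00109), while its second probe gave 0.35.

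BRCA1 itself was far dimmer, at 66.6 to 117 in eSLCs and 29.5 and 48.3 in the SCs, with a difference of 1.23 ± 0.29 (adjusted p = 0.0162). Its call was lost without SC P5 (0.88) and with normexp on the median signals (0.70). XRCC3 and RAD54L, which both assist strand exchange, differed by 1.38 ± 0.28 and 1.42 ± 0.39. The second XRCC3 probe gave 0.59, and the XRCC3 call was lost with the mean of its probes. XRCC3 lost its call without either SC array (adjusted p = 0.0952 without SC P5 and 0.0635 without SC P10), and RAD54L lost it without either of them (0.222 and 0.0553) and without I2, I9, P1 or P4. XRCC2, which also assists strand exchange, was 368 and 347 in I2 and I9, 277 and 1135 in N2 and N7, 246 and 354 in P1 and P4 and 279 and 441 in the SCs. The values of 5 eSLC arrays thus lay in or near the SC range and N7 lay 3.08-fold above the next. Its difference of 0.15 ± 0.54 turned to -0.19 without N7 and to -0.18 without SC P5.

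The Fanconi genes did not move together. FANCL, the ubiquitin ligase of the core complex, was 90.2 and 88.4 in the IVP-eSLCs, 65.7 and 125 in the NT-eSLCs, 66.4 and 107 in the PA-eSLCs, and 244 and 247 in the SCs. All eSLC arrays lay below both SC arrays, and the signal fell by 1.48 ± 0.30 on the log2 scale (2.78-fold lower, adjusted p = 0.0101). FANCL was read by 1 probe. The call, though not the direction, was lost without either SC array (adjusted p = 0.087 without SC P5 and 0.0852 without SC P10). FANCD2, the protein that the ligase modifies, was 4254 and 3904 in I2 and I9, 4124 and 5884 in N2 and N7, 3645 and 4640 in P1 and P4, and 1374 and 3076 in SC P5 and SC P10. Its difference of 1.08 ± 0.34 (adjusted p = 0.0424) was 0.50 without SC P5, and the call was also lost without I2, I9, N7, P1 or P4, under the array median (adjusted p = 0.0526) and under quantile normalization (0.0591). FANCG was at 0.66 ± 0.21. FANCA was at or near the floor on every array, between 13.3 and 32.9, and was not well above background in SC P5.

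**Figure D3:**
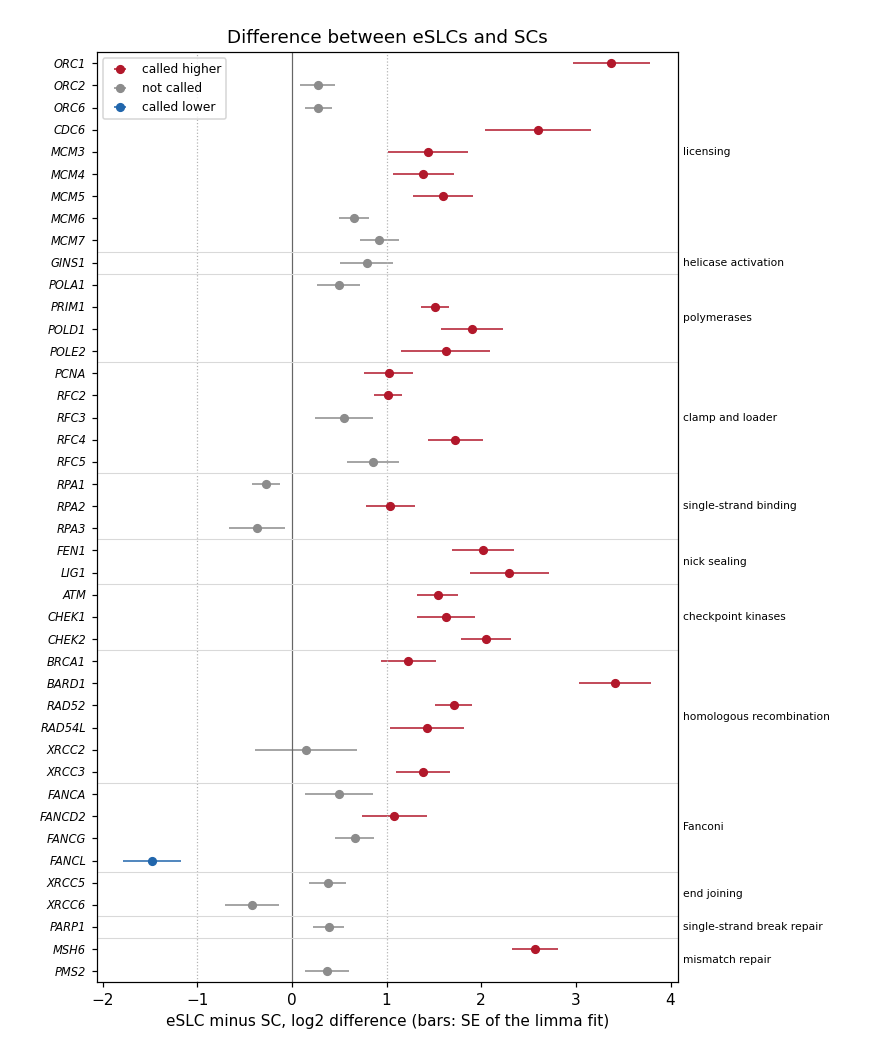
Log2 difference, eSLC minus SC, of each of the 42 members (points) with the SE of the limma fit (bars); dotted lines mark 2-fold and colours the call. The 24 called higher run from RFC2 at 1.02 to BARD1 at 3.41, and FANCL is at -1.48.

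MSH6, which with its partner binds mismatched bases, was the member with the smallest adjusted p. It was 28296 and 18134 in the IVP-eSLCs, 15596 and 20735 in the NT-eSLCs, 28185 and 22762 in the PA-eSLCs, and 3398 and 3951 in SC P5 and SC P10. The SC values differed by 1.16-fold, and the difference of 2.57 ± 0.24 is a 5.94-fold change (adjusted p = 0.000499). The other 2 MSH6 probes gave 2.62 and 2.73. PMS2, which acts later in mismatch repair, was 311 and 396 in I2 and I9, 341 and 442 in N2 and N7 and 266 and 399 in P1 and P4, against 248 and 301 in the SCs, a difference of 0.37 ± 0.24 that did not pass the test (adjusted p = 0.237).

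End joining and single-strand break repair genes gave no calls. XRCC6 and XRCC5 code for the Ku subunits that bind broken ends. XRCC6 was 1664 and 2752 in I2 and I9, 2039 and 1388 in N2 and N7, 1027 and 1361 in P1 and P4 and 2487 and 1886 in the SCs, and XRCC5 was 3138 and 3707, 3658 and 2641, and 4064 and 3333 on the same eSLC arrays and 2717 and 2507 in the SCs. The Ku differences were -0.42 ± 0.29 for XRCC6 and 0.38 ± 0.20 for XRCC5, and in both genes eSLC and SC values overlapped. PARP1, which marks breaks with poly(ADP-ribose), was 13149 and 13501 in I2 and I9, 11450 and 14894 in N2 and N7, 14548 and 15547 in P1 and P4 and 10620 and 10424 in the SCs. Every eSLC array lay above the SCs for PARP1, by a difference of 0.39 ± 0.16 that missed the threshold (adjusted p = 0.095).

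Each origin was also set against the SCs, and these comparisons share the SC arrays. In IVP-eSLCs 19 members were called higher, beside 17.7% of all genes tested, and 1 lower, beside 14.6%. NT-eSLCs gave 19 members higher beside 15.8% and 1 lower beside 13.9%. PA-eSLCs gave 22 members higher beside 20.4% and 1 lower beside 14.9%. The member called lower was FANCL in each. The median differences of the members were 1.03, 1.20 and 1.12. The members called higher in all 3 origins numbered 17, those in 1 or 2 origins 6, and those in none 19. The same counts over all genes tested are not given here, so this overlap is not read as a trait of the members. ORC1 differed by 3.51 ± 0.50 in IVP-eSLCs, 3.29 ± 0.50 in NT-eSLCs and 3.33 ± 0.50 in PA-eSLCs, and BARD1 by 3.45 ± 0.47, 3.45 ± 0.47 and 3.34 ± 0.47. LIG1 differed by 2.19 ± 0.51, 1.90 ± 0.51 and 2.80 ± 0.51. Without SC P5 fewer members were called higher in each origin, and fewer of all genes tested were as well.

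No member was called between origins. NT-eSLCs against IVP-eSLCs gave 0% of all genes tested, with 306 genes and 0 members at an unadjusted p below 0.05, and the methods' t-test called 0 members. PA-eSLCs against IVP-eSLCs also gave 0%, with 568 genes and 1 member (ORC2) at an unadjusted p below 0.05, and the methods' t-test called 0 members. By the difference of the mean log2 signals alone, with no test and no criterion of presence, no member was 2-fold apart in either comparison, where 5.83% and 5.15% of all genes tested were. The largest differences were 0.65 ± 0.66 for XRCC2 in NT-eSLCs and -0.86 ± 0.35 for XRCC6 in PA-eSLCs, each against IVP-eSLCs. IVP-eSLCs lay wholly on slide 1 and PA-eSLCs wholly on slide 2, so origin and slide cannot be told apart there. These values do not show that the origins were alike, since each rests on 2 arrays and the SE of a member's difference lay between 0.18 and 0.69.

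Among the 6 eSLC arrays, the SD of the log2 signal had a median of 0.28 over the members and 0.35 over all genes. MCM7 had a low spread, at 16048 to 18514 with an SD of 0.08, and ORC6 one of 0.13. The widest spread was that of XRCC2 at 0.79, followed by LIG1 at 0.64 and FANCA at 0.56, the last of which lay near the floor. Relative to the mean of the 6 arrays, the median member stood at 0.17 in P4 and 0.13 in N7 and at -0.16 in N2 and -0.12 in P1, while the median of all genes tested lay between -0.06 and 0.04. N7 exceeded N2, the other NT-eSLC array, in 31 of 42 members, with a median of 0.34 against 0.00 over all genes, and RAD54L (906 against 389) and POLE2 (1202 against 621) were among them.

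The 2 SC arrays differed from each other in these genes. SC P10 was higher than SC P5 in 36 of 42 members (85.7%), where 45.9% of all genes tested were higher in SC P10, and the median difference of SC P5 minus SC P10 was -0.60 for the members and 0.00 for all genes. In 10 members SC P10 was at least 2-fold above SC P5, where 1.27% of all genes tested were. These were ORC1, CDC6, MCM3, MCM4, MCM5, POLD1, POLE2, FEN1, BARD1 and FANCD2. The gap was wider in the 24 replication members, at a median of -0.75, than in the 18 repair and checkpoint members, at -0.25, and the difference between these lists was not tested. MSH6, ATM, PRIM1, RAD52 and PARP1 were within 1.16-fold on both arrays. Each array is 1 sample, so these values carry no test.

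**Figure D4:**
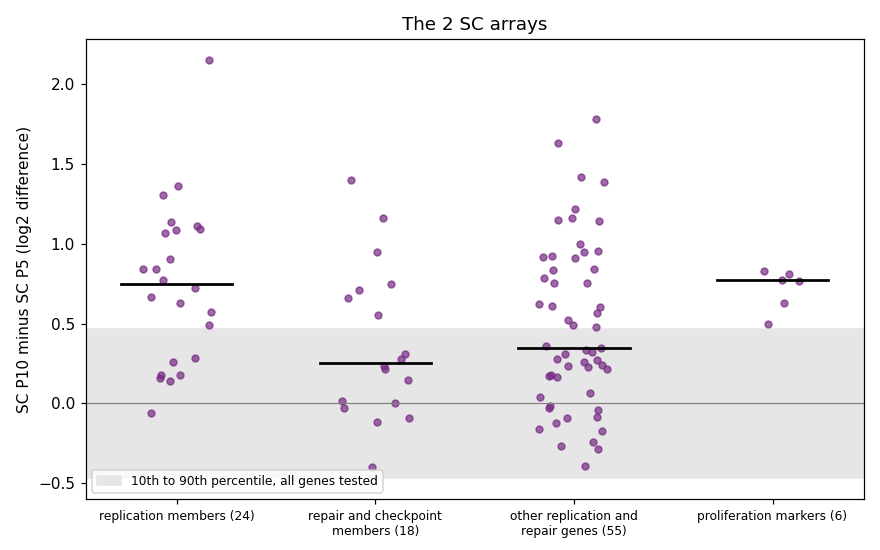
SC P10 minus SC P5 (log2 difference), 1 point per gene, for 24 replication members, 18 repair and checkpoint members, 55 other replication and repair genes and 6 proliferation markers; black lines are medians and the grey band spans the 10th to 90th percentile of all genes tested, -0.47 to 0.47. Most points of replication members and all 6 proliferation markers lie above the band.

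The proliferation markers moved with the members. All 6 measured (CDK1, CCNA2, CCNB1, BUB1, AURKA and PLK1) were called higher in eSLCs, with a median difference of 1.23, and all 6 were lower in SC P5 than in SC P10, with a median of -0.77. CDK1, the kinase that drives entry to mitosis, was 967 in SC P5, 1652 in SC P10 and 3550 to 5039 in the eSLCs. CCNB1, its cyclin, was 2189, 3835 and 6435 to 8650 in the same order. MKI67 and TOP2A had no named probe. The part of the share of dividing cells in the differences of the replication and repair genes was not tested.

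The difference was also taken within each slide, as a value with no test. On slide 1, where the eSLC mean was set against SC P5, 28 of 42 members were at least 2-fold higher, beside 23.4% of all genes tested, and the median was 1.52. On slide 2, against SC P10, 15 of 42 were at least 2-fold higher, beside 23.1% of all genes tested, and the median was 0.73. The medians of all genes were 0.19 and 0.25. The slide values come from the arrays that gave the calls, so they are a description and no second test of them. ORC1 was at 4.22 and 2.53, CDC6 at 3.72 and 1.47, and BARD1 at 4.10 and 2.73 on slides 1 and 2, while MSH6 (2.69 and 2.45), LIG1 (2.49 and 2.10), RAD52 (1.72 and 1.70) and ATM (1.51 and 1.56) differed by less between slides. XRCC2 turned from 0.91 to -0.61. FANCL was at -1.29 and -1.67.

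**Figure D5:**
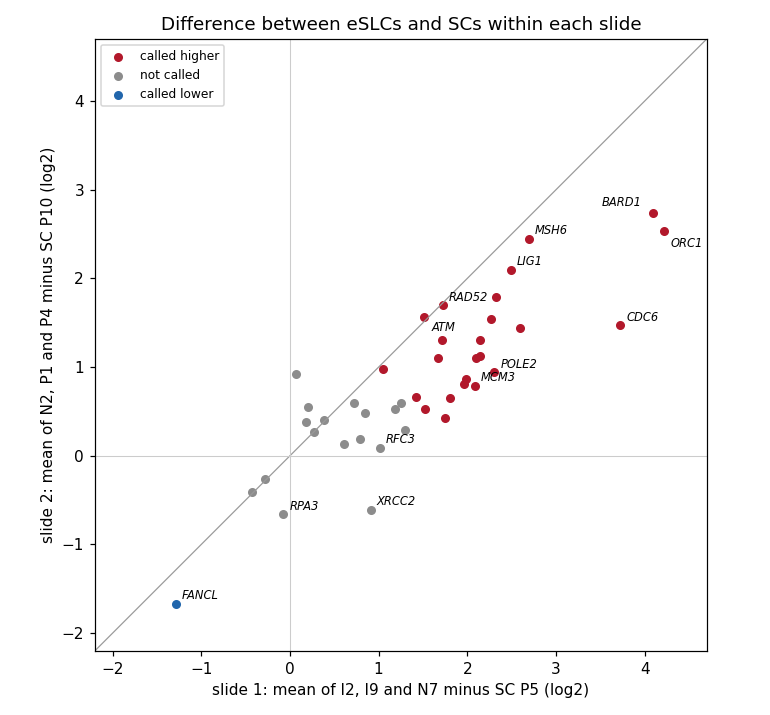
Log2 difference between eSLCs and SCs on slide 1 (I2, I9 and N7 against SC P5, horizontal axis) and slide 2 (N2, P1 and P4 against SC P10, vertical axis) for the 42 members; the line marks equal values. For 35 members the slide 1 difference is larger, and MSH6, RAD52 and ATM sit near the line.

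A list of 61 further replication and repair genes, chosen by role with earlier results of these data known, gives the surroundings of the 42. A named probe was found for 55, all tested, and 16 were called higher (29.1%) and 2 lower (3.64%), with a median difference of 0.67. Of all genes tested, 19.7% were called higher and 15.7% lower, with a median difference of 0.23. DNA2, the nuclease and helicase that resects ends and trims long flaps, was 183 to 484 in the eSLCs and 26.1 and 36.6 in SC P5 and SC P10, a difference of 3.25 ± 0.42 (adjusted p = 0.00175). GINS3, a partner of GINS1, differed by 2.37 ± 0.32 (adjusted p = 0.00203), and POLA2, the accessory subunit of polymerase alpha, by 1.90 ± 0.34 (adjusted p = 0.00568). Both genes called lower act in repair. ERCC1, a subunit of the nuclease of nucleotide excision repair, was 1305 to 2435 in eSLCs and 7269 and 8137 in SCs (-1.97 ± 0.21, adjusted p = 0.00083). XRCC4, the partner of the end joining ligase, was 165 to 318 in eSLCs and 572 and 436 in SCs (-1.11 ± 0.26, adjusted p = 0.0173).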

How the data were processed

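The authors hybridised Cy3-labelled RNA to Agilent bovine 44K arrays, quantified the scans with Feature Extraction 11.5.1.1 and normalized them with GeneSpring GX; they deposited linear spot intensities per array and a matrix of normalized intensities. The matrix columns have medians of 118.7 to 500.8. They are linear and rank probes as the same array's spots, and how they were scaled or centred is unknown here.

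The background-subtracted intensity was used, since in 6 of the 8 deposited tables the processed signal ranked spots unlike it (Spearman correlation 0.159 to 0.215). Control and outlier spots (1 to 11 per array) were left out, and spots of 1 probe averaged. Each array was divided by its 75th percentile (set to 1000), lower values were set to a floor of 13.3, and log2 was taken. Probes (26743 of 43653 named) were paired with genes through the RefSeq table of assembly ARS-UCD2.0, which is not the build of the array, so no coordinates are given. Of several probes, the one brightest over all arrays stood for the gene, and 30 of the 42 members had more than 1. A gene was tested when well above background on every array of 1 condition.

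limma 3.58.1 (R 4.3.3) was fitted to all 8 arrays with a mean per condition, and p-values were adjusted by Benjamini-Hochberg over the 10957 genes. A gene was called at an adjusted p below 0.05 and 2-fold. The methods' t-test was run on the same values. The member list, role groups and further genes were chosen with earlier results of these data known. Described with all 8 values were the 2 members of each role with the largest difference, and every member called lower or called between origins. MCM5 and XRCC2 were also described in this way, outside that rule. Of the further genes, the 3 with the largest rise and up to 3 with the largest fall among those called were described. No probe of a member had the opposite sign. The number of arrays limits the precision.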

Additional observations from a re-analysis of the deposited data

Results flagged for a closer look

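In 2 members 1 of the 6 eSLC arrays stood apart from the others, measured as the gap to its nearest neighbour over the whole range of the 6. Such a gap appears by chance in about 1 of 20 groups, and 4.76% of the members and 7.94% of all genes tested had one. XRCC2 was 1135 in N7 against 246 to 368 on the other 5 arrays, with a gap of 0.737 of the range. GINS1 was 7768 in N7 against 4652 to 5401 on the others, with a gap of 0.709 of the range.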

How the results depend on the processing

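Of the 25 members called between eSLCs and SCs, 12 kept the call under all 21 alternatives run on the background-subtracted or median signals, and 13 lost it under at least 1. Among the 21, the 2-fold limit without a test reuses the main differences, so no call could be lost under it. The median of all genes moved from 0.23 to 0.12 with quantile normalization, and that of the members from 1.06 to 1.01. Over all genes tested, the count called higher in eSLCs was 2155, but 276 with the processed signal and 1359 with the authors' values. In the same order they were 1937, 142 and 1020 for IVP-eSLCs, 1734, 203 and 967 for NT-eSLCs, and 2230, 132 and 1086 for PA-eSLCs. By the methods' t-test they were 1665, 1337 and 2065 for the origins in that order, and 432, 149 and 935 after its adjustment. The NT-eSLC count was 1455 without a filter and 1326 in a fit of the arrays compared.

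With eSLCs against SCs, 24 members were called higher, 1 with the processed signal, 15 with the SC arrays as 1 sample and 12 to 24 when each array was left out in turn; the 1 called lower was 0 with the processed signal, with the authors' normalized values and with the SC arrays as 1 sample, and 0 to 1 with arrays left out. IVP-eSLCs had 19 called higher, but 0 with the processed signal, 7 with the authors' values, 8 by the methods' t-test and 0 after its adjustment, and 5 to 19 with arrays left out. NT-eSLCs had 19, but 0 with the processed signal, 6 with the authors' values, 11 without a filter, 12 with the SC arrays as 1 sample, 8 in a fit of the arrays compared, 7 by the methods' t-test and 0 after its adjustment, and 6 to 19 with arrays left out. PA-eSLCs had 22, but 0 with the processed signal, 7 with the authors' values, 14 with the SC arrays as 1 sample, 10 by the methods' t-test and 4 after its adjustment, and 11 to 22 with arrays left out. The 1 member called lower in each origin, FANCL, was 0 in all 3 with the processed signal, the authors' values, and the SC arrays as 1 sample, 0 in NT- and PA-eSLCs by the adjusted t-test, 0 in IVP- and NT-eSLCs without a filter, 0 in NT-eSLCs by the t-test and in a fit of the arrays compared, 0 in PA-eSLCs with the slide as a block, and 0 to 1 with arrays left out.

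Signs turned in 6 members with the processed signal (BARD1 -1.89, FANCA -1.21, RFC2 -8.50, ORC2 -0.13, POLA1 -1.57 and PRIM1 -1.06), in ORC6 (-0.16) and PARP1 (-0.17) with the authors' values, and in XRCC2 without N7 (-0.19) or SC P5 (-0.18), with a range of -0.19 to 0.49 as each array was left out. Why the authors' values turned ORC6 and PARP1 was not tested. On I9, N7, P1, P4 and both SC arrays, the processed signal of spots of 1 probe had an SD of 3.88 to 4.29 (log2). The background-subtracted signal gave 0.17 to 0.23 on the same arrays. Normexp on the mean signals was not run, and the median signals, chosen after seeing the data, took their place. No paired analysis was possible because the labels call every sample replicate 1 and pair none of them; numbers 1 and 2 here only name the arrays. With the slide as a block, 22 members were called higher between eSLCs and SCs, where 2113 of all 10957 genes tested were.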
